A study of Rattus norvegicus with 10 samples.

Results

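Genes that sense nutrient and energy supply were examined in the brain of rats after 1 week of mild or moderate calorie restriction (CR). The set was chosen by name, with earlier results of these data known, and held 10 genes. These were the kinase *Mtor*, its upstream inhibitors *Tsc1*, *Tsc2*, *Sesn1* and *Ddit4*, and its target *Eif4ebp1*. The others were the AMPK catalytic subunits *Prkaa1* and *Prkaa2*, the deacetylase *Sirt1* and the transcription factor *Foxo1*. A probe set, the group of short probes that measures a transcript on an Affymetrix array, was taken when its only gene symbol in the platform annotation was that of a member. This gave 15 probe sets of the 31099 on the array and 9 of the 10 genes, of 14218 genes with such a probe set. The expression of *Sirt1* was not analysed here. Male Wistar rats, an outbred strain, aged 6 weeks at the start, received either their full measured intake (control) or 5, 10, 20 or 30% less for 1 week, and all were fasted for 16 h before the brain was taken, from the hypothalamus area according to the methods of the study. No rat carried a transgene or received a drug as far as the labels tell. RNA of 5 rats was pooled for each group and hybridized to a single array, so there were 5 arrays in all, no second array at any level, and the number of arrays limits the precision. The 1 month arrays were not used, because their rows did not follow the probe set identifiers (log2 signals correlated with those of the 1 week arrays at 0.036 to 0.052 in 25 pairs of arrays).

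The kinase mTOR, as part of a complex on the lysosome called mTORC1, promotes protein synthesis when amino acids, growth factors and energy are plentiful. The TSC1 and TSC2 proteins restrain it by switching off the GTPase Rheb, sestrins restrain it when leucine is scarce, and DDIT4 (REDD1) restrains it under stress, among other stimuli after glucocorticoid exposure. 4E-BP1, the product of *Eif4ebp1*, binds the cap-binding factor eIF4E and blocks translation until mTORC1 phosphorylates it. AMPK is the kinase that senses a low energy charge and inhibits mTORC1, and FoxO1 enters the nucleus when insulin signalling is low. In the hypothalamus mTOR and AMPK activity take part in the control of feeding. Much of this regulation acts on protein phosphorylation, which an array does not measure.

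The control pool differed from the CR pools in ways that reach beyond the members. Its log2 signals correlated with those of the CR arrays at 0.852 to 0.874, against 0.912 to 0.922 among the CR arrays. Of its values 24.02% were below 10, compared with 11.71 to 14.35% on the CR arrays. Its poly-A spike-ins were higher in 12 of 12 probe sets, by a median log2 difference of 1.29. Its hybridization spike-ins were higher in 3 of 9, with a median log2 difference of -0.03 (control minus CR). The log2 ratio of 3' to 5' signal was 0.19 for GAPDH in the control against 0.40 to 0.79 in CR. Of the markers of hypothalamic neurons, 4 of 12 tested were higher and 1 lower in CR. The 14 on the array, tested or not, together gave 27992 in the control and 32119 to 34707 in CR. The sums of the other marker lists also take every marker on the array. The defining peptide gene *Pomc* was too dim to be tested. All 3 pituitary markers tested, of 10 on the array, were higher (sums of 1046 and of 2210 to 2964), while the hormone genes *Gh1* and *Prl* that define this tissue were too dim to be tested. For the choroid plexus 1 of 3 was higher (600 against 660 to 765), and neither of 2 blood markers passed (5169 against 5407 to 8041). Of the neuron, astrocyte, myelin, endothelial and microglial markers, 2, 1, 0, 1 and 1 were higher and 2, 2, 4, 1 and 0 lower, of 9, 8, 9, 9 and 7 tested. The summed signals of the first 4 were higher in the control (21530, 30907, 26028 and 2456) than on any CR array (at most 20950, 30074, 25806 and 2374), and the microglial sum was 2352 in the control and 2286 to 2507 in CR. No marker was at 0 on all arrays. Of all genes, each taken by its brightest probe set, 11.6% were called higher and 11.4% lower. Every comparison with control given here moves with these differences, and their part in the results was not tested. In RNA from whole tissue, fewer cells of a type and less RNA per cell cannot be told apart.

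At 1 week of CR the mTORC1 inhibitors *Sesn1* and *Ddit4* were lower than in the control. *Mtor* was called higher, but this call was lost in 8 of 14 alternative settings of the processing. *Tsc1*, *Tsc2*, *Eif4ebp1*, *Prkaa1*, *Prkaa2* and *Foxo1* did not pass the test. The 4 CR arrays were set against the control array in a limma fit over the 15521 brighter probe sets, those whose geometric mean signal over the 5 arrays exceeded 53.3 (the 50th percentile), with Benjamini-Hochberg adjustment and a threshold of 0.05. Each of the 9 genes had 1 probe set that passed this filter, and each would have passed on the control signal alone and on the mean of the CR signals alone. Of these 9 probe sets 1 was called higher, while 14.5% of all tested probe sets were, and 2 were called lower, beside 11.0% of all. These counts do not set the genes apart from the rest of the array. The median log2 difference was 0.39 over the 9 probe sets and 0.03 over all tested. In 4 of the 9 every CR array lay above the control and in 3 every CR array lay below it, beside 37.1% and 33.1% of all tested probe sets. Of these 9, *Sesn1* was the only one more than 1.5-fold below control at all 4 CR levels, and none was more than 1.5-fold above it at all 4 (7.44% and 12.4% of all tested).

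**Figure D1:**
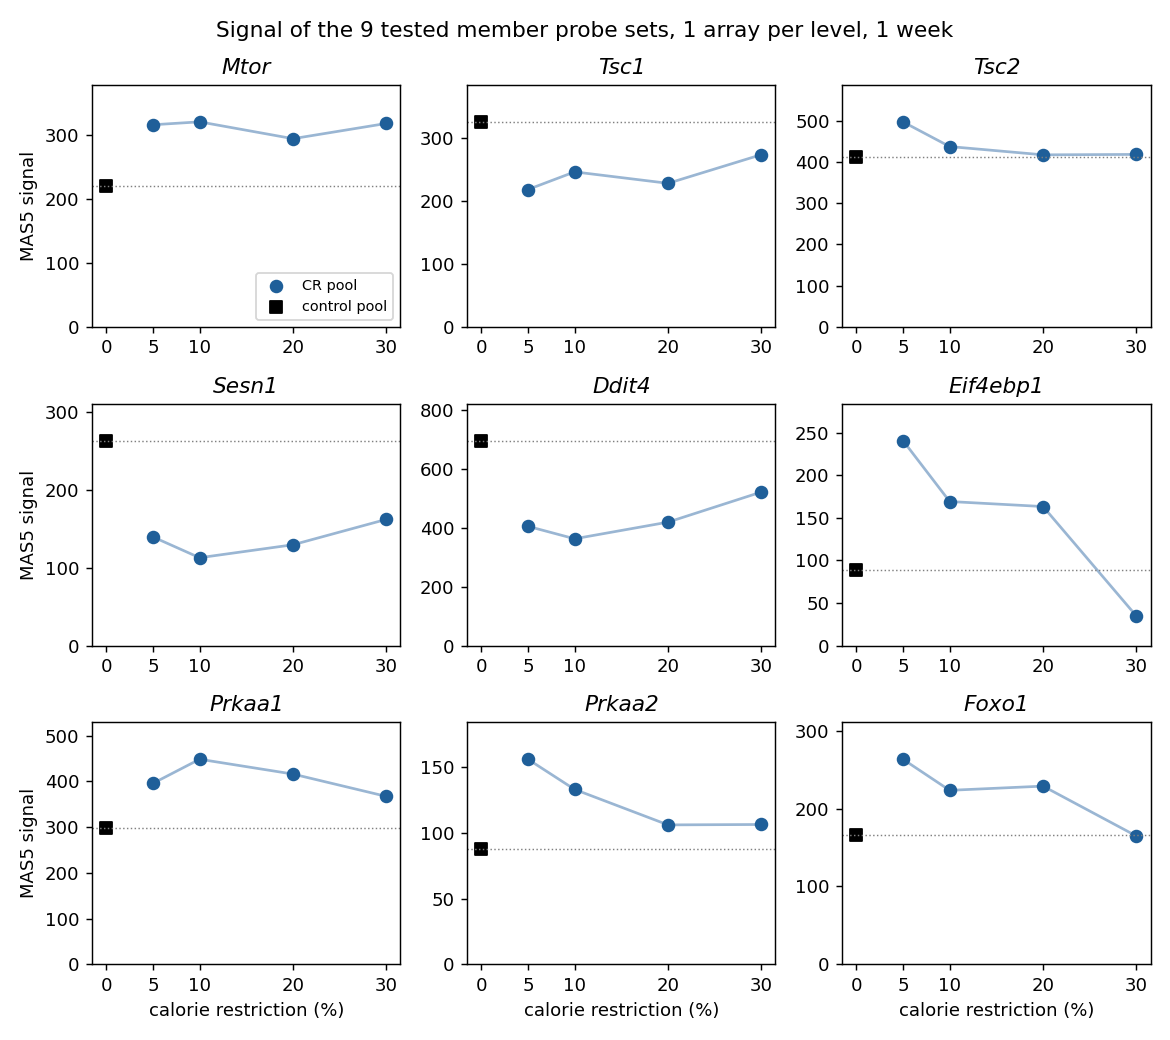
MAS5 signal (linear scale, from 0) of the tested probe set of each of 9 genes against calorie restriction in percent, with 1 array per level, the control pool as a black square and the CR pools as blue points. *Mtor* lies above the control signal of 220.8 at every level, *Sesn1* and *Ddit4* lie below theirs of 263.8 and 697.2, and *Eif4ebp1* runs from 240.7 at 5% to 34.5 at 30%.

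The kinase gene *Mtor* had a signal of 220.8 in the control and 316.8, 321.4, 295.0 and 318.9 at 5, 10, 20 and 30% CR. The CR values lay close together, all above the control (as in 37.1% of all tested probe sets), and the lowest of them was that at 20%. The log2 difference was 0.50 ± 0.06 (SD, n = 4; adjusted p = 0.047 by limma), a 1.42-fold change. The SD of *Mtor* among CR arrays was smaller than that of all but 5.04% of the tested probe sets, while the moderated SE of its difference was 0.16. The call was the least secure among the members: it was lost in 8 of 14 alternative settings (adjusted p 0.031 to 0.79 over all 14). Without the 5, 10, 20 or 30% array in turn the adjusted p was 0.089, 0.084, 0.054 and 0.069, at log2 differences of 0.49 to 0.53. When the arrays were scaled to equal medians, which moved the median difference of all tested probe sets to -0.405, *Mtor* was at 0.07.

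Of the tuberous sclerosis genes, whose products form the complex that keeps Rheb inactive, *Tsc1* was below and *Tsc2* close to the control. The signal of *Tsc1* was 326.5 in the control and 218.7, 246.8, 228.6 and 274.3 from 5 to 30% CR. Every CR value was under the control, as in 33.1% of all tested probe sets. The log2 difference of -0.44 ± 0.14 (SD, n = 4) did not pass after adjustment (adjusted p = 0.119 by limma, 95% interval -0.86 to -0.01). It passed only with median scaling (-0.87, adjusted p = 0.0079, range over the alternatives 0.0079 to 0.23). *Tsc2* had 412.4 in the control and 497.7, 437.7, 417.6 and 418.6 in CR. Its CR values were above the control by little at 20 and 30%, and the log2 difference was 0.10 (95% interval -0.25 to 0.45). With median scaling it had the opposite sign (-0.34). The difference between the changes of *Tsc1* and *Tsc2* was not tested.

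*Sesn1*, which encodes the stress-induced protein sestrin 1, showed the largest change among the tested members. Its signal was 263.8 in the control and 139.8, 113.0, 129.7 and 162.4 at 5, 10, 20 and 30% CR. The 4 CR values all lay below the control, as in 33.1% of all tested probe sets, and the highest of them was that at 30%. The log2 difference was -0.97 ± 0.22 (SD, n = 4; adjusted p = 0.019 by limma, 95% interval -1.52 to -0.41), or 0.512 of the control signal. *Sesn1* stayed past the threshold in all 13 alternatives in which it was tested (adjusted p 0.0020 to 0.040), and the filter at the 75th percentile left it out. A dimmer probe set of *Sesn1*, under the filter, had 52.3 in the control and 46.5, 11.4, 9.5 and 15.4 in CR, again with the control highest. Its log2 difference of -1.65 had an SD of 1.03 (adjusted p = 0.243 in the fit without a filter). Of the related sestrins, *Sesn2* had 98.0 in the control and 133.7 to 149.8 in CR and did not pass (0.52, adjusted p = 0.127), and *Sesn3* was too dim to be tested. The differences between the changes of the sestrins were not tested.

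*Ddit4*, an inhibitor of mTORC1 induced by stress, was lower in every CR pool, as were 33.1% of all tested probe sets. The signal was 697.2 in the control and 405.5, 363.1, 419.7 and 522.2 from 5 to 30% CR. The 30% pool was the closest to the control and the 10% pool the farthest from it. The log2 difference was -0.72 ± 0.22 (SD, n = 4; adjusted p = 0.022 by limma), or 0.608 of the control signal. The call was lost without the intensity trend in eBayes (adjusted p = 0.081, range over 14 alternatives 0.0017 to 0.081) and kept in the other 13. The *Ddit4* paralog *Ddit4l* had 50.2 in the control and 24.6 to 43.1 in CR, under the filter.

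**Figure D2:**
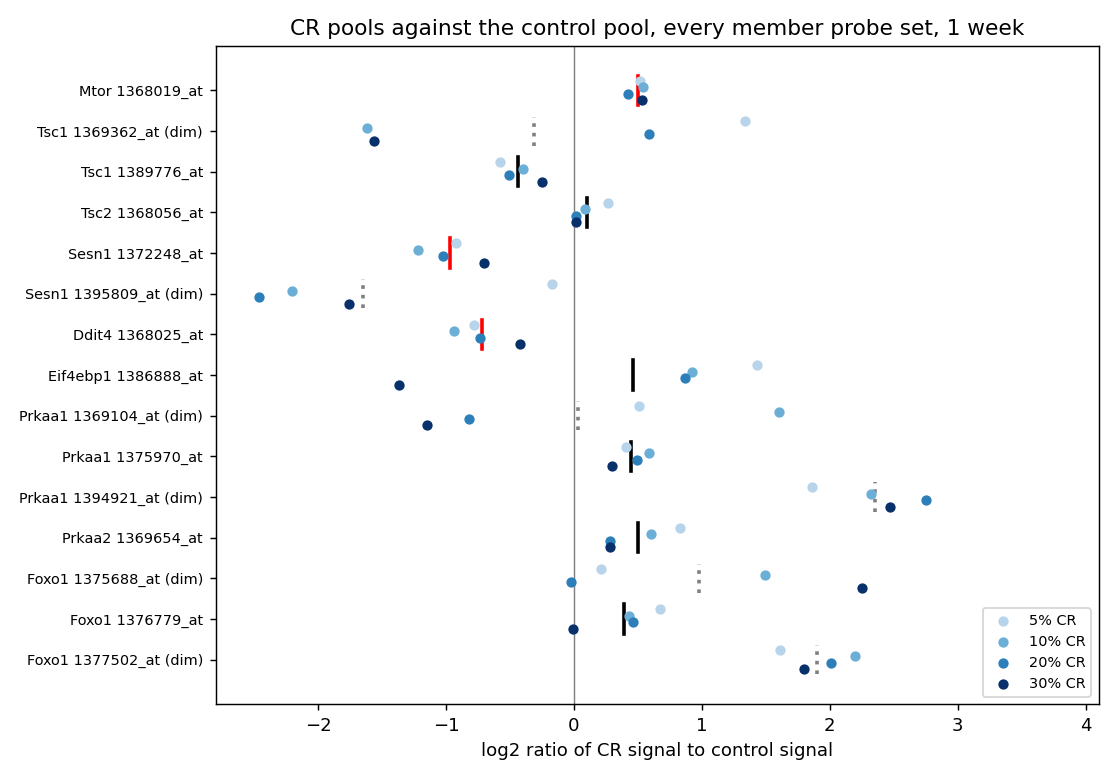
Log2 ratio of each CR array to the control array for all 15 probe sets of the members at 1 week, with CR levels from light (5%) to dark blue (30%). Bars mark the mean of the 4 ratios, red where the adjusted p was under 0.05, black where the probe set was tested without a call, and dotted grey where it was under the signal filter; the points of *Mtor* lie between 0.42 and 0.54 and those of *Eif4ebp1* between -1.37 and 1.43.

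The 250 bases before the start of the 3 called genes are shown, since *Sesn1* and *Ddit4* were lower and *Mtor* higher in the same arrays. They were taken from RefSeq on GRCr8, where every measured member except *Eif4ebp1* had an entry, and are written on the gene's own strand from 5′ to 3′. *Sesn1* lies at chr20:46948469-46948718 on the plus strand, *Ddit4* at chr20:28437038-28437287 on the minus strand and *Mtor* at chr5:164167735-164167984 on the plus strand. Capitals mark matches, on either strand, to 6 short motifs: GTAAACA (bound by FoxO factors), TGATGNAAT (a composite element bound by ATF4), CACGTG (the E-box), ACGTG (the core of the hypoxia response element, also held within the E-box), AGAACA (part of the glucocorticoid response element) and TGACG (part of the cyclic AMP response element).
Sesn1: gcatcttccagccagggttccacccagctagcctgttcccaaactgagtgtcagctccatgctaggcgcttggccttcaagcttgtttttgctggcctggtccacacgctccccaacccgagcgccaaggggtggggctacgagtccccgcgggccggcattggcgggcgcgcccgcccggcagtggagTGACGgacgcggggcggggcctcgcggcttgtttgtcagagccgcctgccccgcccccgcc
Ddit4: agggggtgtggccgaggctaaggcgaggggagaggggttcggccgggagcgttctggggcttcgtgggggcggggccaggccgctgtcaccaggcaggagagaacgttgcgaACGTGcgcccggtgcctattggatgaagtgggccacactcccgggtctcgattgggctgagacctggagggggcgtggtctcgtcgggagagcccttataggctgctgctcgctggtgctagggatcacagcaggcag
Mtor: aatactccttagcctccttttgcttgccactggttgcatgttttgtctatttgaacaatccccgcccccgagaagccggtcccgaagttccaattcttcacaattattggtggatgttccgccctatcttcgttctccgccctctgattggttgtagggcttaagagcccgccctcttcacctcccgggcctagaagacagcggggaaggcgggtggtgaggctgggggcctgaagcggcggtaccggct

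*Sesn1* held 1 match to TGACG at position -61 from the start, a motif found in 18.2% of 33469 upstream windows of this length, and *Ddit4* held 1 match to ACGTG at position -138, found in 16.6%. *Mtor* held no match to any of the 6. GTAAACA occurred in 3.21% of all windows, TGATGNAAT in 0.944%, CACGTG in 5.59% and AGAACA in 17.5%, and these letters were not in the windows of the 3 genes. Of the other members, *Tsc1* had TGACG once and *Tsc2* had ACGTG once, while the windows of *Prkaa1*, *Prkaa2* and *Foxo1* had no match. The window of *Sirt1* held 2 matches to CACGTG, each of which contains ACGTG on both strands, and 1 to TGACG.

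*Eif4ebp1*, which encodes the translation repressor 4E-BP1, varied most among the CR pools. Its signal was 89.2 in the control and 240.7, 169.1, 163.2 and 34.5 at 5, 10, 20 and 30% CR. The first 3 CR values lay above the control and that at 30% below it, 6.98-fold apart from the highest to the lowest. The SD of the 4 log2 values was 1.25, larger than that of 99.9% of the tested probe sets, whose median SD was 0.20. CR as a whole did not differ from control (log2 difference 0.46, adjusted p = 0.716 by limma, 95% interval -1.35 to 2.28). Without the 30% array the difference was 1.08 and passed (adjusted p = 0.020, range over the alternatives 0.020 to 0.98), so this outcome was set by a single array. Of the related repressors, *Eif4ebp2* had 277.1 in the control and 227.6 to 366.1 in CR, and *Eif4ebp3* had 83.1 and 98.6 to 117.6, neither past the threshold (adjusted p = 0.798 and 0.372).

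Both AMPK catalytic subunits had higher signals in every CR pool, as had 37.1% of all tested probe sets, and neither passed the test. For *Prkaa1* (AMPK alpha 1) the signal was 297.3 in the control and 395.7, 448.6, 416.1 and 367.2 from 5 to 30% CR. The log2 difference was 0.45 ± 0.12 (SD, n = 4; adjusted p = 0.070 by limma, 95% interval 0.08 to 0.81), and it passed in 1 of 14 alternatives, cyclic loess scaling (0.52, adjusted p = 0.047, range 0.047 to 0.96). *Prkaa2* (AMPK alpha 2) had 87.6 in the control and 156.1, 133.1, 106.1 and 106.4 in CR. Its CR values were all above the control, with the mildest restriction highest, and the log2 difference was 0.50 ± 0.27 (SD, n = 4; adjusted p = 0.247, 95% interval -0.16 to 1.16). With median scaling both were close to the control, at 0.01 and 0.06.

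*Foxo1*, the insulin-responsive transcription factor, had a signal of 166.1 in the control and 263.6, 223.6, 229.0 and 164.8 at 5, 10, 20 and 30% CR. The first 3 CR pools lay above the control and the 30% pool at its level. The log2 difference was 0.39 ± 0.29 (SD, n = 4; adjusted p = 0.296 by limma), and with median scaling it had the opposite sign (-0.05).

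The other 6 probe sets of the members, of *Tsc1*, *Sesn1*, *Prkaa1* and *Foxo1*, were under the signal filter with control signals of 4.7 to 52.3. Probe sets this dim were mostly higher in CR on the whole array, with a median log2 difference of 0.99, and all 4 CR arrays lay above control in 53.9% of them and below it in 10.3%. Among the 6, this was so for 2 above, of *Prkaa1* (6.1 against 22.1 to 41.1) and *Foxo1* (4.7 against 14.3 to 21.6), and for 1 below, the dim probe set of *Sesn1*. In the fit without a filter, where 15.9% of 31042 probe sets were called higher, the dim *Prkaa1* probe set was the only 1 of the 15 called higher (2.35, adjusted p = 0.044). A dim *Prkaa1* and a dim *Tsc1* probe set had CR values on both sides of the control, with values 6.72-fold and 7.81-fold apart among the CR arrays, and so did the last of *Foxo1*. The direction of the brighter probe set was also seen in all CR arrays for the dim *Sesn1* probe set. For *Prkaa1* and *Foxo1*, 1 of 2 dim probe sets each lay above control in all CR arrays, as did 53.9% of probe sets this dim. Such a rise therefore cannot back the brighter probe sets, and the brighter *Foxo1* probe set was itself above control in 3 of the 4.

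The second question was whether the members moved with the level of restriction among the CR arrays, a comparison that does not use the control array. None of the 9 did by limma, with 0% of 15521 probe sets past the threshold and 743 at an unadjusted p under 0.05. *Eif4ebp1* fell by 1.02 on the log2 scale per 10 percentage points of CR (95% interval -1.47 to -0.56), with an unadjusted p of 7.7e-04 and an adjusted p of 0.748. *Foxo1* had a slope of -0.23 and *Prkaa2* of -0.22, each with the highest signal at 5% (unadjusted p of 0.036 and 0.096 by limma, adjusted p = 0.999 for both). *Ddit4* had a slope of 0.17 (95% interval -0.01 to 0.34). *Mtor* had -0.01 (95% interval -0.19 to 0.17) and *Sesn1* 0.12 (-0.15 to 0.40). The remaining slopes were 0.10 for *Tsc1*, -0.09 for *Tsc2* and -0.06 for *Prkaa1*.

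Around the members, 123 further genes of the network in 8 lists were examined with the brightest probe set of each gene, of which 113 were on the array under their symbol and 99 passed the filter. Of these 99, 12 were higher and 19 lower, while 11.6% and 11.4% of 9478 genes measured in the same way were higher and lower. Among the higher genes, *Inpp5d* passed the filter only through its CR signals. The median log2 difference of the 99 was -0.08. The signs of the 19 lower genes held under median, quantile and cyclic loess scaling, but 19, 15 and 17 of them were still called, and 10 without the intensity trend. Of the 12 higher genes 4, 10 and 10 were still called under these scalings and 7 without the trend, and *Lamtor2* and *Rps6* were below control with median scaling. Calls held in all 14 alternatives for 10 of the lower genes and for 3 of the higher, *Fnip1*, *Larp1* and *Ddit3*.

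**Figure D3:**
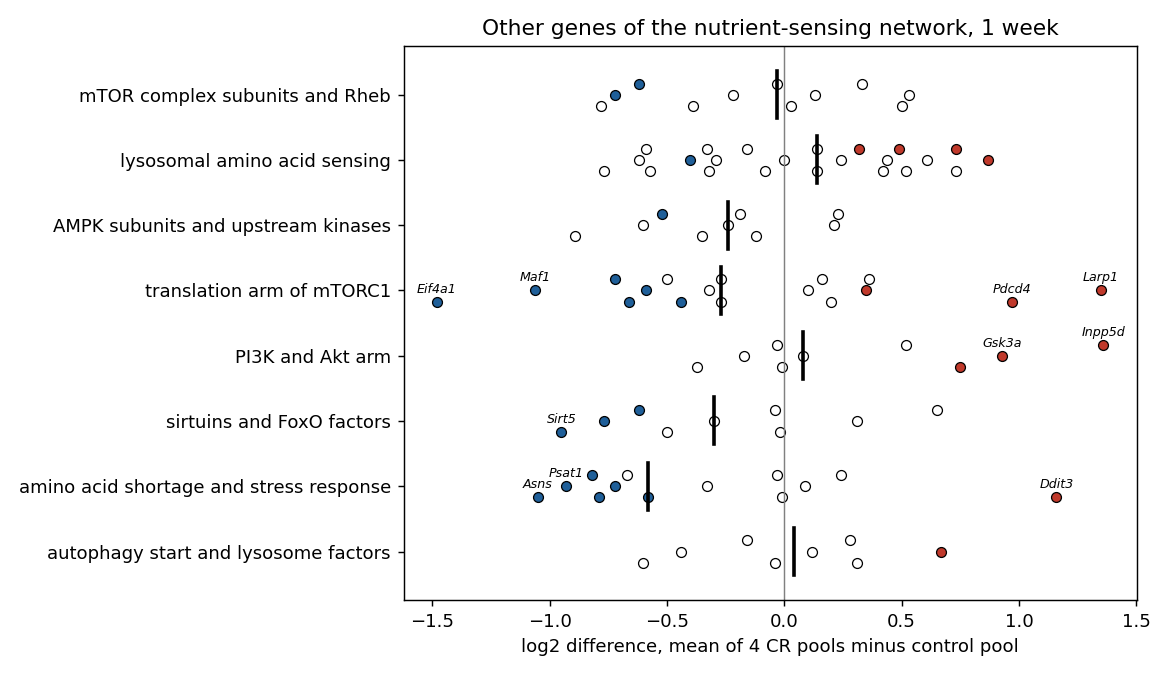
Change of 99 genes (mean of the 4 CR pools minus the control pool, log2 scale) in 8 lists, 1 point per gene, red where called higher, blue where called lower and white where not called, with black bars at the list medians. Medians run from -0.58 for the amino acid shortage list to 0.14 for lysosomal amino acid sensing, and *Eif4a1* (-1.48) and *Inpp5d* (1.36) lie at the ends. *Inpp5d* passed the signal filter only through its CR signals.

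Among the partners of mTOR, 2 of 11 tested genes were lower and none higher, beside 11.4% and 11.6% of all genes. *Rheb*, the GTPase that activates mTORC1, had 2895.9 in the control and 1762.4 to 2086.5 in CR (-0.62, adjusted p = 0.0056 by limma). Another tested probe set of *Rheb* was called in the opposite direction (2.82), so the gene is uncertain. The lower call of *Rheb* was also lost without the intensity trend. *Deptor*, an inhibitory subunit of both mTOR complexes, had 294.6 and 163.5 to 191.8 (-0.72, adjusted p = 0.024). *Rictor*, the defining subunit of mTORC2, was at 0.13. In the lysosomal amino acid sensing list, 4 of 23 rose and 1 fell. *Fnip1*, a partner of folliculin, rose by 0.87, with its other probe set also higher. *Castor2*, of the arginine sensor family, rose by 0.73 and *Lamtor5*, a Ragulator subunit, by 0.49. The calls of *Castor2* and *Lamtor5* were lost with median scaling (0.29 and 0.05) and without the intensity trend. *Rraga*, the GTPase RagA, changed by -0.40, and the Ragulator subunit *Lamtor3* (-0.29) did not pass. *Rraga* was not called without the intensity trend or without the 5% array.

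Beside 11.4% of all genes lower and 11.6% higher, 1 of 9 AMPK subunit and upstream kinase genes tested fell. This was *Cab39* (-0.52), the MO25 scaffold of the LKB1 complex, and its other probe set was lower too. The call was lost in 4 of 14 alternatives (quantile scaling, cyclic loess scaling, no intensity trend, and without the 5% array). The gene of LKB1, *Stk11*, was too dim to be tested, and the calcium-dependent kinase *Camkk1* was at -0.24. Of 9 genes of the PI3K and Akt arm, 3 rose and none fell: *Inpp5d*, the phosphatase SHIP1 of blood and microglial cells (1.36), *Gsk3a*, a kinase inhibited by Akt (0.93), and *Pik3r2*, a regulatory subunit (0.75), whose second probe set was at -0.04. *Inpp5d* had a control signal of 40.5 and passed the filter only through its CR signals, and the kinase *Pdpk1* was at -0.01. The calls of *Gsk3a* (0.49) and *Pik3r2* (0.32) were lost with median scaling, and that of *Inpp5d* with quantile scaling (0.94).

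The translation machinery under mTORC1 had calls in both directions, 3 higher and 6 lower of 17, beside 11.6% and 11.4% of all genes. *Eif4a1*, the RNA helicase of the cap-binding complex, had a signal of 1404.2 in the control and 408.0 to 578.2 in CR, a log2 difference of -1.48 ± 0.23 (SD, n = 4; adjusted p = 8.1e-04 by limma). *Maf1*, a repressor of RNA polymerase III, was at -1.06 and *Eef2*, elongation factor 2, at -0.72. Without the intensity trend *Maf1* was not called. *Eif4e*, the cap-binding factor that 4E-BP1 holds back, had 1338.4 in the control and 817.0 to 871.7 in CR (-0.66, adjusted p = 0.0034). Higher were *Larp1* (1.35), which binds mRNAs of the translation machinery, *Pdcd4* (0.97), an inhibitor of eIF4A, and *Rps6* (0.35). *Rps6* was not called under median, quantile or cyclic loess scaling (-0.09, 0.05 and 0.14), and *Pdcd4* was not called with median scaling or without the intensity trend. The 3 other tested probe sets of *Pdcd4* were all below control (-0.43, -0.33 and -1.17), 1 of them called lower, so the gene is uncertain. The 3 others of *Larp1* were at -0.26, 0.80 and 1.00, 2 of them called higher. *Eif4a2* (-0.27) did not pass. Whether the probe sets of *Rps6* and *Eif4a1* also measure near-identical copies was not tested.

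In the amino acid shortage list, with a median of -0.58, 6 of 13 tested genes were lower and 1 higher, beside 11.4% and 11.6% of all genes, and the list itself was not tested. This arm runs from phosphorylation of eIF2 alpha to the transcription factor ATF4, which also induces *Sesn2* and *Ddit4*. *Atf4* had 1536.4 in the control and 788.8 to 942.1 in CR (-0.79 ± 0.12, SD, n = 4; adjusted p = 0.0029 by limma). *Asns*, asparagine synthetase, a target of ATF4, had 439.7 in the control and 208.1 to 224.9 in CR (-1.05, adjusted p = 0.0025). The serine synthesis enzyme *Psat1* was at -0.93 and *Eif2s1*, eIF2 alpha itself, at -0.82, a call lost without the intensity trend for *Eif2s1*. *Ddit3*, the transcription factor CHOP, went the other way, from 370.6 to values of 810.9 to 841.9 (1.16, adjusted p = 3.6e-04). The transporter subunit *Slc7a11* was at -0.03 and *Chac1* at -0.01. *Trib3*, under the filter, had 17.6 in the control and 42.2 to 60.3 in CR. The genes of this arm thus did not all move in the direction of *Atf4* and *Asns*, and the activity of ATF4 was not tested.

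Of 9 sirtuin, FoxO and related genes tested, 3 were lower and none higher, beside 11.4% and 11.6% of all genes. *Sirt5*, a mitochondrial desuccinylase, had 1248.1 in the control and 632.9 to 658.2 in CR (-0.95 ± 0.03, SD, n = 4; adjusted p = 7.5e-04 by limma). This SD covers the CR arrays only, and the moderated SE of the *Sirt5* difference was 0.12. *Sirt2*, an oligodendrocyte-enriched deacetylase of the cytoplasm, was at -0.77 and *Sirt3*, a mitochondrial deacetylase, at -0.62. With quantile scaling or without the intensity trend *Sirt3* was no longer called. Of the myelin markers 4 of 9 were also lower, and their part in the *Sirt2* value was not tested. *Foxo3*, the relative of *Foxo1*, was at 0.31 and did not pass. Of 8 factors that start autophagy or drive lysosomal genes, *Tfe3*, a transcription factor held in the cytoplasm by mTORC1, rose (0.67) and none fell. The call of *Tfe3* was lost with median scaling (0.23) and without the 5% array, and *Becn1* was at -0.04.

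**Figure D4:**
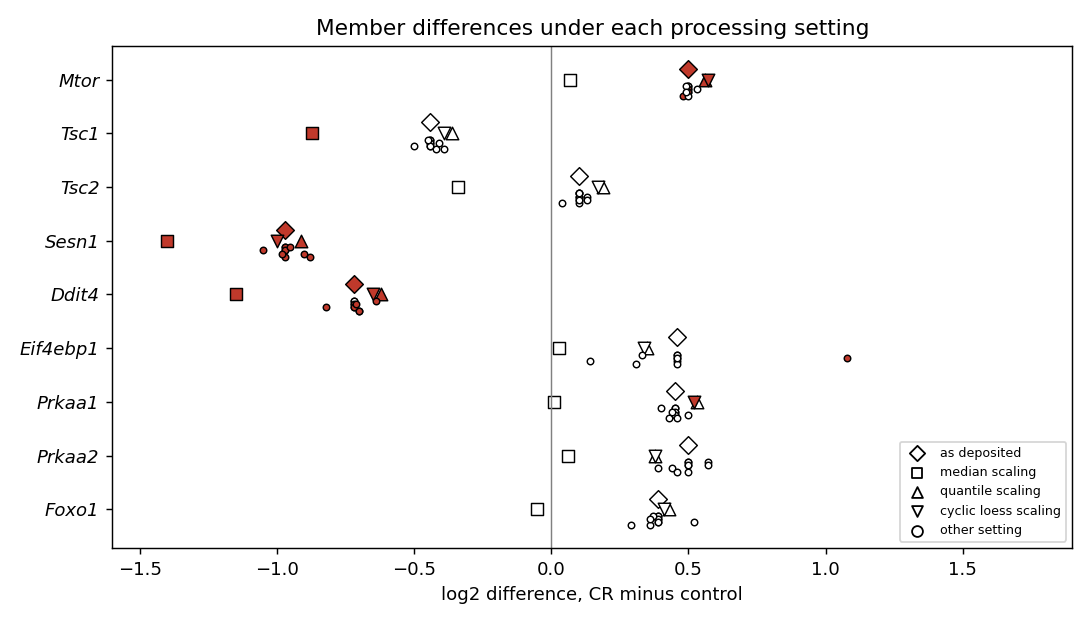
Log2 difference between CR and control for the tested probe set of each of 9 genes under the values as deposited (diamond), 3 other scalings and the other settings (small circles), filled red where the adjusted p was under 0.05. *Sesn1* is filled wherever it was tested, from -1.40 to -0.88, while median scaling takes *Mtor* to 0.07 and *Prkaa1* to 0.01.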

How the data were processed

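The authors deposited MAS5 signal intensity per probe set (Rat Genome array), scaled per array so that the trimmed mean was 158.8 on all 5 arrays of 1 week. Detection calls were not used here, so dim signals cannot be told from absent transcripts. 20832 probe sets had 1 gene symbol, 436 several (not used) and 9831 none. Log2 values were used with nothing added to the signal, except that 4 zeros were replaced by 0.1. Python 3.11.15 and R 4.3.3 with limma 3.58.1 (lmFit, eBayes with an intensity trend) were used: CR (4 arrays) against control (1 array) with 3 residual degrees of freedom, and the slope over CR level with 2. The 4 CR levels are not replicates, the lone control was assumed to vary like them, and p-values measure the spread between pools only. An SD given with a log2 difference is that of the 4 CR arrays alone and leaves out the error of the control array. The code was tested on simulated data with known changes. Members and lists were chosen with earlier results of these data known. Named from the lists were up to 3 called genes per direction and the brightest uncalled gene. *Atf4*, *Ddit4l*, *Sesn2*, *Sesn3*, *Eif4ebp2*, *Eif4ebp3*, *Stk11*, *Eif4e*, *Lamtor2*, *Chac1* and *Trib3* were added as relatives or after their values were seen. Alternatives were other scalings, filters, a pseudocount of 13.7, eBayes settings and leaving out each CR array.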

Additional observations from a re-analysis of the deposited data

How the results depend on the processing

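Over all 15521 tested probe sets, 2246 were higher and 1712 lower (56.7% of the calls higher), against 1023 and 5024 (16.9%) with median scaling. The filters changed the number tested as well. Without a filter 4943 of 31042 were higher (15.9%, beside 14.5% in the main fit), and with the filter at the 75th percentile 1295 of 7761 were. Without the intensity trend 1006 of 15521 were lower. Leaving out 1 CR array gave 1958 to 2260 higher and 1497 to 1824 lower. Of the 9 member probe sets, 1 was higher and 2 lower. The number higher was 0 with median scaling, with a filter on the lowest signal and without the trend, 2 with cyclic loess scaling (*Mtor* and *Prkaa1*), and 0 to 1 when a CR array was left out, where the 1, without the 30% array, was *Eif4ebp1* and not *Mtor*. The number lower was 1 with the filter at the 75th percentile, where 6 members were tested, and 1 without the trend. With median scaling 3 member probe sets were more than 1.5-fold below control at all CR levels, instead of 1. The network lists had 12 higher and 19 lower genes, 4 and 43 with median scaling and 7 and 10 without the trend. The cause was not tested. The trend over CR level gave 0 calls in all 5 alternatives, and the slopes of *Mtor*, *Tsc1*, *Sesn1*, *Ddit4* and *Prkaa1*, none of them past the threshold, changed sign when the control was included as 0%. No member's call changed direction, and the uncalled *Tsc2* and *Foxo1* changed sign with median scaling (-0.34 and -0.05). *Mtor* was lost in 8 of 14 alternatives and *Ddit4* in 1. No paired analysis was possible because each group had 1 array. *Tsc1* and *Prkaa1* had 95% intervals that left out 0 and failed only after adjustment over 15521 probe sets.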
